A study of Mus musculus with 11 samples.

Results

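Imprinted genes were examined in RNA from sorted pancreatic β-cells of 8-week-old mice with and without *Raptor*, the gene for the defining subunit of the nutrient-sensing kinase complex mTORC1. The set was 38 mouse genes known to be imprinted, listed by name, and all 38 were found among the 34745 entries of the expression table. From general knowledge of each locus, 22 of them are expressed from the paternal allele, 10 from the maternal allele, and in 6 the active allele depends on the tissue or the isoform (*Gnas*, *Ube3a*, *Blcap*, *Inpp5f*, *Copg2* and *Ppp1r9a*). There were 11 libraries from mice of strain C57BL/6 x 129SV, 3 labelled wild type (WT) and 8 labelled BetaRapKOGFP-/-. Of the mutants, 4 had no insulin pellet (diabetic βRapKOGFP) and 4 had carried one for 4 weeks (euglycemic βRapKOGFP). All mice were male and carried RIP-Cre, in which the rat insulin promoter drives Cre, and a *Rosa26* GFP reporter, so the WT libraries also come from Cre-positive cells, and the sort took cells by a history of Cre activity and not by the insulin they held at the time. No source used here ties a library to a single animal, so p-values measure the spread between libraries, which may be technical in part.

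An imprinted gene keeps 1 parental copy silent, by DNA methylation laid down in the egg or sperm and then copied through cell divisions, and most imprinted genes lie in clusters governed by a shared control region. In such clusters a long noncoding RNA is often made from one parental chromosome and the protein-coding neighbours from the other, as with *Meg3* and *Dlk1* or *Airn* and *Igf2r*. Many imprinted genes act in growth and metabolism, and several are known in islets, among them *Cdkn1c*, a brake on β-cell division, and *Nnat*, which takes part in insulin precursor handling. The libraries measured total RNA of each gene, so which parental allele was read was not analysed here.

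Only the paternally expressed *Dlk1* and the isoform-dependent *Inpp5f* passed the test between diabetic βRapKOGFP and WT, both higher in the mutant, and *Dlk1* also passed with the mutant groups pooled. These calls were lost with no filter on low values, and *Dlk1* entered the test through mutant libraries alone. The promoters of these genes are shown because their RNAs were the ones that moved, with those of *Mest* and *Peg3*, the members with the largest differences that did not pass the test. In each sequence, CpG dinucleotides, the kind of site at which imprints are methylated, are in capitals, whether or not they carry an imprint. The *Inpp5f* window lies at the 5′ end of the whole gene, whereas only its shorter isoform is imprinted, so it is not shown as an imprinted promoter. The windows reach from 250 bases before to 50 after the start site, come from RefSeq on GRCm38.p6 and run 5′ to 3′ on the gene's own strand.
*Dlk1* (chr12:109452573-109452872, plus strand): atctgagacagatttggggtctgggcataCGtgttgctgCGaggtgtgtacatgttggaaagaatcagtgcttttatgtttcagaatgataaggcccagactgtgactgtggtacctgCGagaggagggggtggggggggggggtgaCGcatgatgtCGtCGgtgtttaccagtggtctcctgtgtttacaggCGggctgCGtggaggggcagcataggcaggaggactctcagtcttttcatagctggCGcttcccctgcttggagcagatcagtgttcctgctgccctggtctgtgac
*Inpp5f* (chr7:128611115-128611414, plus strand): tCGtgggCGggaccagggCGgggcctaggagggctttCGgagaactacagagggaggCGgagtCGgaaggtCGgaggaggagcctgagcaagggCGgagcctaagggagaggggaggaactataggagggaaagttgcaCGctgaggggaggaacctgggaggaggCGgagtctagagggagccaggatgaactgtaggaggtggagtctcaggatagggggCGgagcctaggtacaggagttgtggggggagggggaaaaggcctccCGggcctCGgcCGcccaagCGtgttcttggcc
*Mest* (chr6:30737800-30738099, plus strand): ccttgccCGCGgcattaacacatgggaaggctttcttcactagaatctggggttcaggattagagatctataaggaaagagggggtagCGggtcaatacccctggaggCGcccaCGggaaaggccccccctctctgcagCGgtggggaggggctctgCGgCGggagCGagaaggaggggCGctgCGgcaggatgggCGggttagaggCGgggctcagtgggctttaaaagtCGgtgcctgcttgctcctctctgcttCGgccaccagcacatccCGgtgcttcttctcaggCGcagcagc
*Peg3* (chr7:6730370-6730669, minus strand): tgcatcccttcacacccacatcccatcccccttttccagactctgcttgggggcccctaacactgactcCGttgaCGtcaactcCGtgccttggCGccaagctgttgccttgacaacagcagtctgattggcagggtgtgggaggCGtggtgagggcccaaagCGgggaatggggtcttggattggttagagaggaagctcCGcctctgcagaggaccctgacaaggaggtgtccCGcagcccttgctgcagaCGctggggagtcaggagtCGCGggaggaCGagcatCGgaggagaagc

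These windows held 9 CpGs in *Dlk1*, 15 in *Inpp5f*, 17 in *Mest* and 13 in *Peg3*, against a median of 7 in all 32851 promoters of the same table and of 15 in those of the members. *Mest* has several listed start sites, and the window with the most CpGs was taken, so its CpG number is in part set by that choice. The hexamer TGCCGC, whose methylated form is the recognition sequence of the imprint-guarding factor ZFP57, was searched on both strands. It occurred 2 times in the *Mest* window and 0 times in the other 3, and 11.6% of all promoters held it. Of the 46 promoters listed for 31 of the members, 13 (28.3%) held it. The hexamer contains a CpG and the members' windows hold more CpGs by median. Shares at matched CpG number were not compared, so nothing is read from this difference. The hits are matches of letters, and methylation was not measured. *Mest* also hosts a microRNA in its introns, whose mature forms are shown with the seed (bases 2 to 8) in capitals because they lie inside that gene. Poly-A sequencing did not measure these microRNAs, and their seeds differ.
mmu-miR-335-5p (chr6:30741314-30741336, plus strand): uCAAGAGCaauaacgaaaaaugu
mmu-miR-335-3p (chr6:30741354-30741375, plus strand): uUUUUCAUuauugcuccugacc

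Levels are given in FPKM, the fragments per kilobase of transcript scaled to the fragments mapped, as the authors deposited them. The depth inferred from the step between low values was 9510876 to 16659411 fragments per library. Euglycemic replicate 4 stood apart. It had the lowest inferred depth, and 4.6% of the 11251 genes tested were at 0 in it, against 0.187 to 1.08% in the others. It also held the highest sum of acinar (exocrine) markers, 4055 FPKM. These sums were 4.19 to 36.9 FPKM in WT libraries, 23.9 to 2292 in diabetic ones and 17.7 or more in the euglycemic. The part of this RNA in the members' values was not tested. The targeted gene *Rptor* averaged 1.37 FPKM in WT, with 0.690 and 0.491 FPKM in the diabetic and euglycemic mutants, and each mutant library lay below each WT library. The margin was narrow, with 0.937 FPKM in diabetic replicate 1 and 0.948 FPKM in WT replicate 1. Summed β-cell markers, mostly *Ins1*, *Ins2* and *Iapp* RNA, lay at 117287 to 206534 FPKM in every library. Of the 10, however, 7 were below WT in diabetic and 9 in euglycemic libraries, and *Slc2a2* and *Slc30a8* were called lower in both (limma). Summed α-cell markers lay at 1463 to 2878 FPKM in WT and 4684 to 24395 in mutant libraries, summed δ-cell markers at 1176 to 2515 and 4864 to 13953, and summed PP-cell markers at 513 to 1107 and 3674 to 14238, so each of these was higher in every mutant than in every WT library. The sum of 8 endothelial markers spanned 0.0487 to 1.84 FPKM over the WT libraries, 9.91 to 51.1 over the diabetic and 0.0436 to 2.59 over the euglycemic, and *Cdh5* and *Eng*, which define these cells, were at 0 in all 3 WT libraries. Summed mesenchymal markers were 0 to 0.641, 1.08 to 21.9 and 0 to 0.403 FPKM, with *Pdgfrb* at 0 in all WT and euglycemic libraries. Summed duct markers were 58.1 to 71.8, 57.8 to 88.4 and 97.1 to 133 FPKM, highest in the euglycemic libraries. Of these markers, *Spp1* and *Krt19* were higher in every mutant than in every WT library. *Spp1* was called in both mutant groups against WT and *Krt19* in the euglycemic (limma). In bulk RNA, a change in the number of cells of a type and a change in RNA per cell cannot be told apart.

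The imprinted genes spanned a wide range of levels in β-cells. The mean over all libraries was at least 10 FPKM for 7 members and at least 1 FPKM for 18. The highest were *Gnas*, which encodes the stimulatory G-protein subunit, at 61.0 FPKM, and *Ndn*, which encodes the growth suppressor necdin, at 60.2 FPKM. Next were *Snrpn*, a splicing protein gene (46.6 FPKM), *Peg3*, a zinc-finger protein gene (38.7 FPKM), *Impact*, whose product restrains the amino-acid sensor GCN2 (25.6 FPKM), *Blcap* (14.6 FPKM) and the noncoding RNA *Peg13* (13.2 FPKM). Between neighbours in this order the ranges over libraries overlapped. The most abundant maternally expressed member was the noncoding RNA *Meg3* at 6.48 FPKM. The median over members was 0.840 FPKM for the paternally and 0.828 FPKM for the maternally expressed genes, and 5.10 FPKM for the 6 others.

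**Figure D1:**
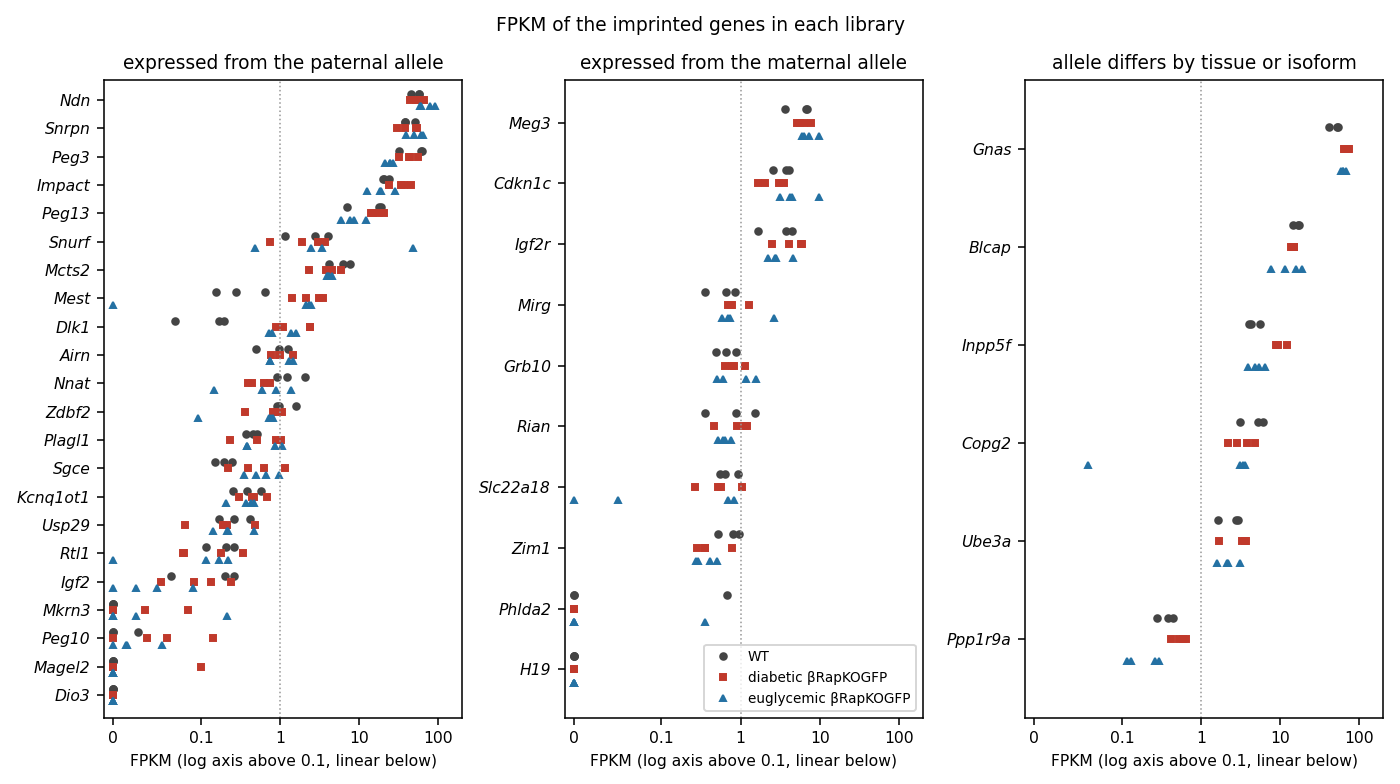
FPKM of each of the 38 imprinted genes in each library (log axis above 0.1 FPKM, linear below), in 3 panels by the expressed allele, where circles are WT, squares diabetic and triangles euglycemic βRapKOGFP libraries, and the dotted line marks 1 FPKM. *Dlk1* and *Mest* lie below 1 FPKM in all WT libraries, and *H19* and *Dio3* lie at 0 in every library.

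At the other end, *H19*, a noncoding RNA, and *Dio3*, a thyroid hormone deiodinase, were at 0 in all 11 libraries. The growth factor gene *Igf2* reached 0.262 FPKM at most, the retrotransposon-derived *Rtl1* and *Peg10* reached 0.336 and 0.140 FPKM, and *Magel2* was above 0 in diabetic replicate 1 only, at 0.0996 FPKM. *Mkrn3*, a single-exon gene, corresponded to 9 fragments in euglycemic replicate 1 and 3 or fewer in every other library. By contrast *Ndn*, its neighbour on chromosome 7, was read in 1583 to 5619 fragments. A gene was tested across the table if it reached 1 FPKM in at least 3 libraries. This held for 21 members, of which 11 were paternally expressed, 5 maternally expressed and 5 of variable allele, and the other 17 were too low. *Mest*, *Dlk1* and *Grb10* reached it through mutant libraries alone, with all WT libraries below 1 FPKM, so their place among the tested genes rests on the mutant values.

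The first comparison asks which imprinted genes differ when *Raptor* is missing and the mice are diabetic. A gene was called at an adjusted p of at most 0.05 (limma on log2(FPKM + 1), Benjamini-Hochberg over all genes tested) with a change of at least 1.5-fold. Between diabetic βRapKOGFP and WT, 2 of the 21 members were called, both higher, where 0.969% of all genes tested were called. At an unadjusted p of at most 0.05 there were 6 members, 5 higher and 1 lower, against 11.9% of all genes. In 5 members the 2 groups did not overlap, against 13.5% of all genes. *Dlk1* is in each of these counts and *Mest* in the last 2. Both were tested only through their mutant values, so no excess is read from the counts. The median log2 fold change was 0.11 over the tested members and 0.01 over all genes, with 13 members above 0 and 8 below. No maternally expressed member reached an unadjusted p of 0.05.

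*Dlk1*, a membrane protein of the Notch-ligand family that holds back differentiation, rose in diabetic libraries. It lies on chromosome 12 from 109452823 to 109463336 (GRCm38), with no exon shared with another gene. Its FPKM was 0.169, 0.196 and 0.0703 in the WT libraries, 2.39, 1.10, 2.37 and 0.896 in the diabetic and 1.39, 1.58, 0.797 and 0.727 in the euglycemic libraries. Every mutant library lay above every WT library. The means (± SD) of the 3 WT, 4 diabetic and 4 euglycemic libraries were 0.145 ± 0.0660, 1.69 ± 0.801 and 1.12 ± 0.425 FPKM. The log2 fold change of diabetic against WT was 1.18 ± 0.25 (SE; adjusted p = 0.0449, limma), and 2.79 with a pseudocount of 0.1, since the pseudocount of 1 compresses the change of so low a gene. With both mutant groups against WT it was 1.03 ± 0.22 (SE; adjusted p = 0.0463, limma). Both calls sat at the threshold, for a gene that met the minimum FPKM only through mutant libraries. With no filter on low values they were lost (adjusted p = 0.169 for diabetic and 0.196 for both groups, limma), as they were with a minimum of 0.1 FPKM (adjusted p = 0.0550 and 0.0587, limma). They were kept without diabetic replicate 4 or without euglycemic replicate 4, and lost without any other single library, where the adjusted p (limma) was 0.0560 to 0.168 for diabetic and 0.0503 to 0.259 for both groups. With the replicate number as a block the adjusted p (limma) was 0.0581 and 0.0600. In all, 8 alternatives kept the diabetic call and 13 lost it, and 8 kept the pooled call and 12 lost it. The log2 fold change ran from 1.055 to 2.79 and from 0.963 to 2.54 over these alternatives.

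*Inpp5f*, which encodes a phosphoinositide phosphatase of endosomes, was the second member to rise in diabetic libraries. It lies on chromosome 7 from 128611328 to 128696425, and only its shorter, neuronal isoform is imprinted. Values per gene do not separate isoforms. Its FPKM was 3.99, 4.27 and 5.48 among WT libraries, 12.2, 8.93, 9.40 and 9.11 among diabetic libraries and 3.92, 4.85, 5.40 and 6.33 among euglycemic libraries. The diabetic libraries lay above all others, and the euglycemic overlapped WT. The log2 fold change of diabetic against WT was 0.97 ± 0.20 (SE; adjusted p = 0.0390, limma), or 1.96-fold. This call was kept without euglycemic replicate 1 or without euglycemic replicate 4. It was lost without any other single library (adjusted p of 0.0581 to 0.159, limma), with the replicate block (adjusted p = 0.138, limma), with no filter on low values (adjusted p = 0.104, limma) and with a minimum of 0.1 FPKM (adjusted p = 0.0558, limma). In all, 8 alternatives kept the call and 13 lost it, with log2 fold changes of 0.87 to 1.13. The endothelial and mesenchymal marker sums were also highest in the diabetic libraries, and their part in the *Inpp5f* and *Dlk1* results was not tested. The α-, δ- and PP-cell marker sums and the duct markers *Spp1* and *Krt19* were higher in all mutant libraries, as *Dlk1* was. The part of these cells in the *Dlk1* result was not tested.

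*Mest*, a membrane protein of the hydrolase family linked to the size of fat cells, showed the largest log2 difference from WT among the tested members in diabetic libraries with a pseudocount of 1, whereas with 0.1 that of *Dlk1* was larger (2.79 against 2.58). The gene spans chromosome 6 from 30723547 to 30748465. *Copg2* exons on the opposite strand cover 23.1% of its exonic sequence, so without knowledge of strand some fragments cannot be assigned. Its FPKM was 0.278, 0.642 and 0.156 among WT libraries, 3.11, 1.42, 2.12 and 3.48 among diabetic libraries and 2.29, 2.47, 2.11 and 0 among euglycemic libraries. All mutant libraries except euglycemic replicate 4 lay above WT. The log2 fold change of diabetic against WT was 1.35 ± 0.39 (SE; adjusted p = 0.154, limma) and did not pass. Without euglycemic replicate 4, which enters only through the shared spread, the adjusted p (limma) was 0.0113, while the calls over all genes rose from 109 to 210. *Mest* met the minimum FPKM only through mutant libraries, and with no filter its adjusted p was 0.421 (limma).

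3 further members were at an unadjusted p of at most 0.05 between diabetic and WT libraries without being called. *Gnas* was at 41.7, 54.0 and 51.8 FPKM in WT and 63.4, 65.1, 75.0 and 71.9 in diabetic libraries, without overlap (log2 fold change 0.48 ± 0.17 SE, adjusted p = 0.257, limma). *Impact* was at 19.9, 20.8 and 24.0 FPKM in WT and 34.1, 23.4, 44.6 and 37.3 in diabetic libraries, where diabetic replicate 2 lay within the WT range (0.64 ± 0.26 SE, adjusted p = 0.360, limma). *Nnat*, which lies within an intron of *Blcap*, was at 2.08, 1.23 and 0.914 FPKM in WT and 0.440, 0.627, 0.393 and 0.740 in diabetic libraries, all lower (-0.61 ± 0.25 SE, adjusted p = 0.362, limma). Exons of other genes on the opposite strand cover 22.0% of those of *Gnas*, among them the imprinted antisense RNA *Nespas*.

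**Figure D2:**
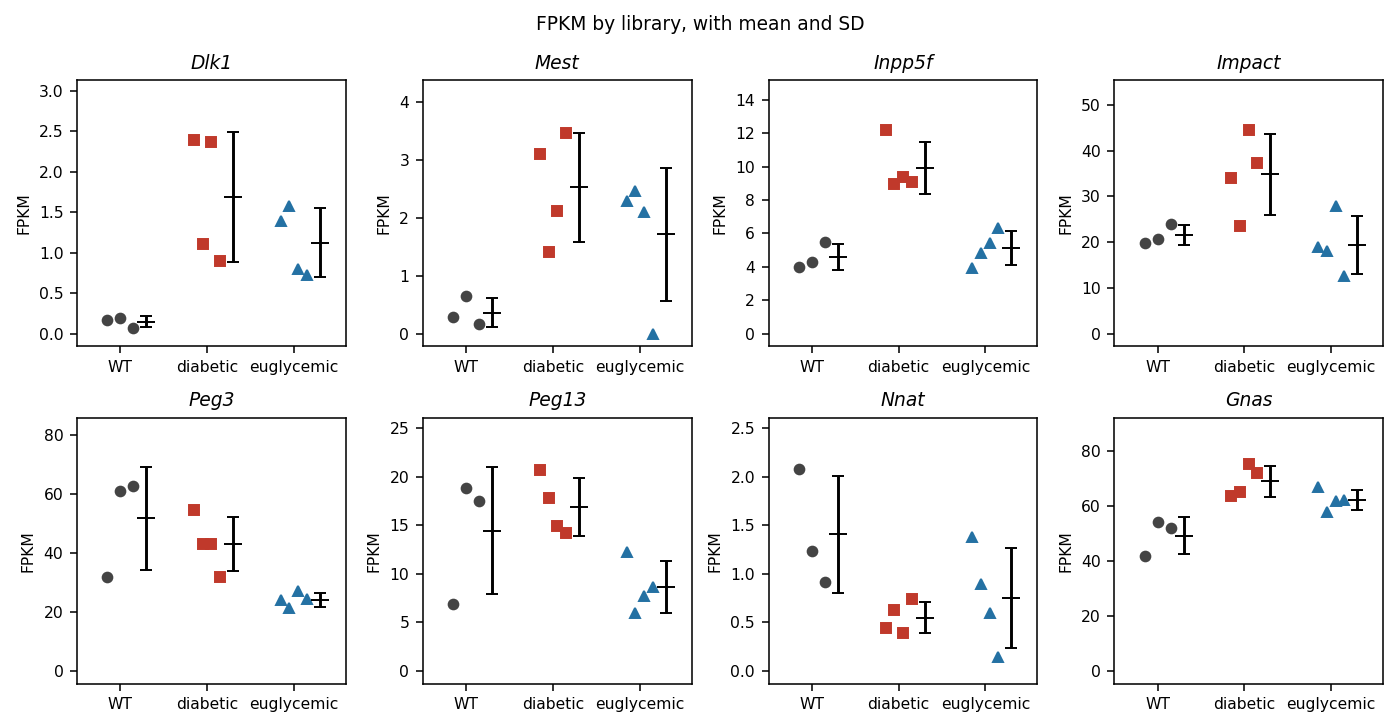
FPKM of 8 imprinted genes in each library (linear axes), with WT as circles, diabetic as squares and euglycemic βRapKOGFP as triangles, and a bar beside each group for its mean and SD (n = 3, 4 and 4). *Dlk1* lies higher in all mutant libraries, *Inpp5f* in the diabetic libraries, and *Peg3* lower in the euglycemic libraries, at 21.3 to 27.0 FPKM.

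The second comparison, euglycemic βRapKOGFP against WT, asks what differs when glucose was kept normal with insulin. It uses the same WT libraries as the first, so the comparisons are not independent. By limma 0 of the 21 members were called, where 0.551% of all genes were called. At an unadjusted p of at most 0.05 there were 3 members, 2 higher and 1 lower, against 13.9% of all genes. The 2 higher ones, *Dlk1* and *Mest*, were tested only through their mutant values. In 4 members the groups did not overlap, against 10.9% of all genes. The median log2 fold change was 0.11 over the members and -0.01 over all genes. Without WT replicate 1 there were 2 calls among the members, without euglycemic replicate 4 there was 1, and with library weights 5. Over all genes the calls were 536, 61 and 2287 under these settings, against 62 with all libraries weighted alike.

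*Peg3* was the member with the smallest p in this comparison. It lies on chromosome 7 from 6703892 to 6730431. It had 31.8, 61.0 and 62.8 FPKM among WT libraries, 54.6, 43.1, 43.1 and 32.0 among diabetic libraries and 24.2, 21.3, 27.0 and 24.4 among euglycemic libraries. Each euglycemic library lay below all WT and all diabetic libraries, and WT replicate 1 was far below the other two. The log2 fold change of euglycemic against WT was -1.01 ± 0.25 (SE; adjusted p = 0.122, limma). Without WT replicate 1 it was -1.32 with an adjusted p of 0.0128 (limma). *Dlk1* was higher by 0.87 ± 0.25 (SE, log2; adjusted p = 0.161, limma), without overlap. *Mest* differed by 0.86 ± 0.39 (SE, log2; adjusted p = 0.349, limma), and by 1.29 without euglycemic replicate 4 (adjusted p = 0.0363, limma).

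The third comparison sets the diabetic against the euglycemic mutants, which share the deletion and differ in the pellet. By limma 0 members were called, and 1 gene of all those tested, or 0.00889%. At an unadjusted p of at most 0.05 there were 5 members, against 20.6% of all genes, and in 3 the groups did not overlap, against 14.3%. *Inpp5f* was higher in diabetic libraries by 0.84 ± 0.18 (SE, log2; adjusted p = 0.122, limma), *Impact* by 0.83 ± 0.24 (adjusted p = 0.133) and *Peg3* by 0.79 ± 0.23 (adjusted p = 0.133). *Peg13*, a noncoding RNA from an intron of *Trappc9* on chromosome 15 (72805600 to 72810324), had 6.91, 18.9 and 17.5 FPKM among WT libraries, 20.7, 17.8, 14.9 and 14.2 among diabetic libraries and 12.3, 5.94, 7.73 and 8.66 among euglycemic libraries. The diabetic libraries all lay above the euglycemic, and WT replicate 1 lay among the latter (log2 difference 0.91 ± 0.29 SE, adjusted p = 0.143, limma). The single maternally expressed member among the 5 was *Cdkn1c*, an inhibitor of cyclin-dependent kinases, at 3.07, 1.67, 2.03 and 3.49 FPKM in diabetic and 4.16, 3.11, 4.52 and 9.72 in euglycemic libraries (-0.77 ± 0.28 SE, adjusted p = 0.172, limma). The highest value was again that of euglycemic replicate 4, and without that library the log2 difference of *Cdkn1c* shrank to -0.49. *Impact* had 19.05, 18.1, 27.9 and 12.6 FPKM in the euglycemic libraries and so overlapped the diabetic group. Without WT replicate 1, which enters this comparison only through the shared spread, *Inpp5f*, *Peg3* and *Peg13* were called, with adjusted p of 0.0417, 0.0418 and 0.0425 (limma), while the calls over all genes rose from 1 to 378.

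With both mutant groups against WT, *Dlk1* was the 1 member called, where 1.05% of all genes were called. At an unadjusted p of at most 0.05 there were 6 members, against 11.3% of all genes, and in 2 (*Dlk1* and *Gnas*) no mutant library overlapped WT, against 3.68%. The other 5 were *Mest* at 1.11 ± 0.34 (SE, log2; adjusted p = 0.199, limma), *Inpp5f* at 0.55 ± 0.17 (adjusted p = 0.209), *Gnas* at 0.41 ± 0.15 (adjusted p = 0.291), *Peg3* at -0.61 ± 0.22 (adjusted p = 0.289) and *Nnat* at -0.55 ± 0.23 (adjusted p = 0.371). Without WT replicate 1 the *Peg3* value was -0.93. Over all alternatives that of *Nnat* ran from -1.10 to -0.35. Euglycemic libraries held 66.8, 57.8, 61.8 and 62.0 FPKM of *Gnas* and 1.38, 0.891, 0.593 and 0.147 FPKM of *Nnat*. By allele, 1 of the 11 tested paternally expressed members, 0 of the 5 maternally expressed and, in the diabetic comparison alone, 1 of the 5 variable members were called. The paternal call is *Dlk1*, which entered the test through mutant libraries alone, and with no filter 0 members of any allele were called by limma, so nothing is read from this split about the alleles.

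**Figure D3:**
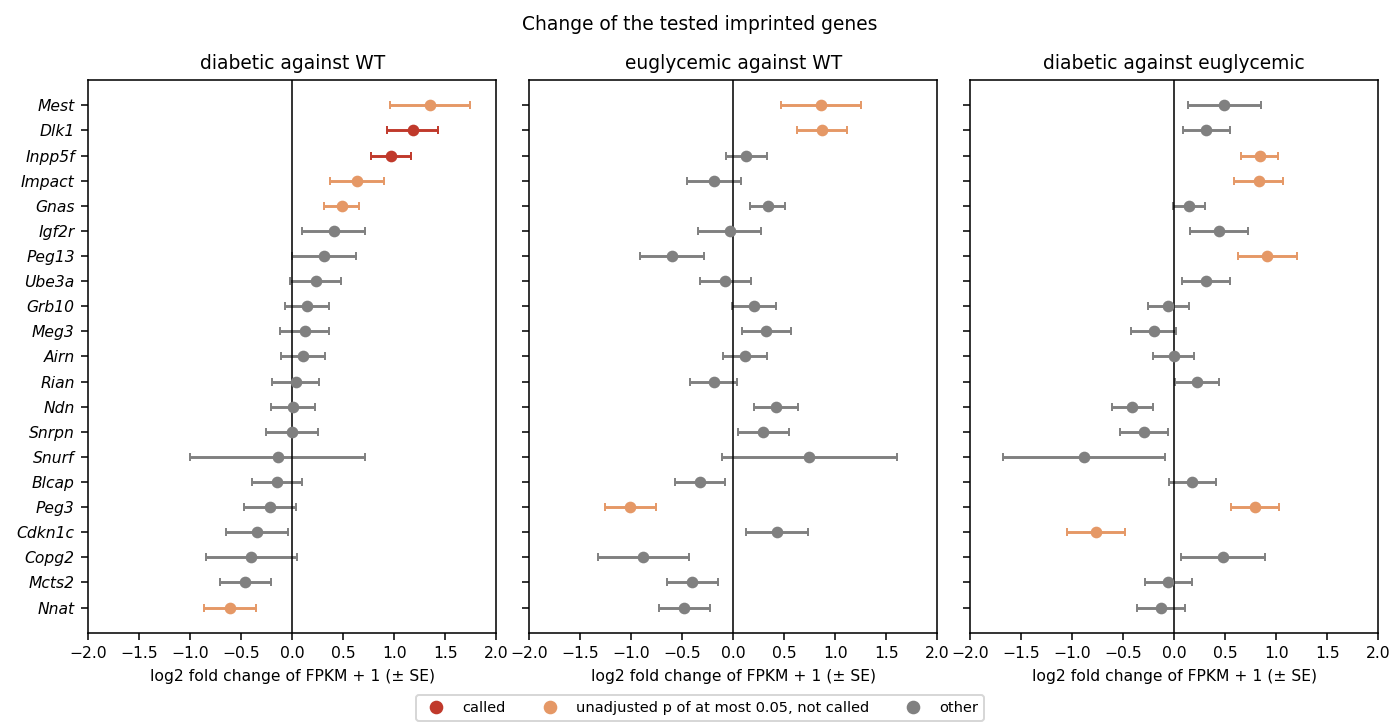
Log2 fold change of FPKM + 1 with its SE for the 21 tested imprinted genes in the comparisons of diabetic and euglycemic βRapKOGFP with WT and with each other, ordered by the first, where red points were called and orange points had an unadjusted p of at most 0.05. *Dlk1* and *Inpp5f* are the red points, at 1.18 and 0.97 in diabetic against WT, and no point is red in the other panels.

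The tested members not named so far did not reach an unadjusted p of 0.05 in any comparison. *Grb10*, an adaptor that dampens insulin receptor signalling and is itself a substrate of mTORC1, was at 0.670 ± 0.186, 0.848 ± 0.212 and 0.962 ± 0.505 FPKM (mean ± SD of the 3 WT, 4 diabetic and 4 euglycemic libraries, in that order here and below). *Igf2r*, the receptor that clears IGF2, was at 3.27 ± 1.45, 4.61 ± 1.65 and 3.08 ± 1.05 FPKM, and *Airn*, the antisense RNA that silences it on the paternal chromosome, at 0.907 ± 0.384, 1.04 ± 0.281 and 1.06 ± 0.365 FPKM. *Meg3* was at 5.74 ± 1.82, 6.20 ± 1.14 and 7.33 ± 1.76 FPKM and *Rian*, from the same maternal cluster, at 0.915 ± 0.579, 0.923 ± 0.335 and 0.629 ± 0.101 FPKM. *Ndn* was at 53.1 ± 6.78, 53.6 ± 8.87 and 72.1 ± 15.9 FPKM, and *Snrpn* at 42.5 ± 7.63, 43.2 ± 11.6 and 52.9 ± 11.7 FPKM. *Ube3a*, a ubiquitin ligase of the same chromosome 7 region, had group means of 2.25 to 3.08 FPKM. *Blcap*, *Mcts2* and *Copg2* had group means of 13.4 to 16.3, 4.14 to 5.99 and 2.55 to 4.81 FPKM. *Snurf*, which shares its promoter and all of its 216 exon bases with *Snrpn*, ranged from 0.487 to 47.8 FPKM among the euglycemic libraries alone, and how fragments were split between them is not known.

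The members below the minimum were compared one at a time by an exact two-sided permutation test on log2(FPKM + 1), over 15 of the 17, the others being at 0 throughout. After Benjamini-Hochberg adjustment over these tests 0 passed in any comparison, the smallest adjusted p being 0.429 in the exact tests. Libraries of 3 against 4 cannot give an exact p below 0.0286, nor 4 against 4, and 3 against 8 cannot go below 0.00606, so after adjustment a single gene could not have passed. At an unadjusted exact p of at most 0.05, *Zim1*, a maternally expressed zinc-finger gene next to *Peg3*, was at 0.761 ± 0.230 FPKM in WT and 0.367 ± 0.107 in euglycemic libraries (exact p = 0.0286, or 0.0571 with a pseudocount of 0.1) and lower with both mutant groups together (exact p = 0.0121). *Sgce*, which encodes ε-sarcoglycan, was at 0.152, 0.245 and 0.193 FPKM among WT libraries, 1.16, 0.221, 0.388 and 0.618 among diabetic libraries and 0.671, 0.497, 0.968 and 0.353 in euglycemic libraries (exact p = 0.0424 for both groups against WT). *Ppp1r9a*, the cytoskeletal protein neurabin, was at 0.544 ± 0.0947 FPKM in diabetic and 0.199 ± 0.0893 in euglycemic libraries, without overlap (exact p = 0.0286). The remaining members, *Mirg*, *Zdbf2*, *Plagl1*, *Slc22a18*, *Kcnq1ot1*, *Usp29* and *Phlda2*, had group means of 0 to 1.16 FPKM.

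Neighbours in a cluster were compared across the 11 libraries in 12 listed pairs, of which 11 could be computed since *H19* was at 0. *Snrpn* and *Ndn*, both paternally expressed on chromosome 7, varied together (Pearson r = 0.817, permutation p = 0.00135, adjusted p = 0.0149 over 11 pairs by permutation). Spearman's rho was 0.745 (permutation p = 0.0110, adjusted p = 0.121 by permutation). Without diabetic replicate 2 and euglycemic replicate 2, the libraries farthest from the median of *Snrpn*, r was 0.696, and on deviations from the group means it was 0.783. No other pair passed the correction. The permutation is set against no correlation, and how closely genes outside a cluster vary together was not tested. *Krt7*, a listed duct marker, also had its lowest value in diabetic replicate 2 and its highest in euglycemic replicate 1, as *Ndn* did. *Meg3* with *Mirg* had r = 0.623 (permutation p = 0.0655, adjusted p = 0.214 by permutation), which fell to 0.282 without WT replicate 1 and euglycemic replicate 4. *Meg3* with *Dlk1*, which come from opposite parental chromosomes, had r = 0.0177 (adjusted p = 0.960 by permutation). *Peg3* with *Usp29*, which start within overlapping promoter windows on opposite strands, had r = 0.0268 (adjusted p = 0.960 by permutation).

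**Figure D4:**
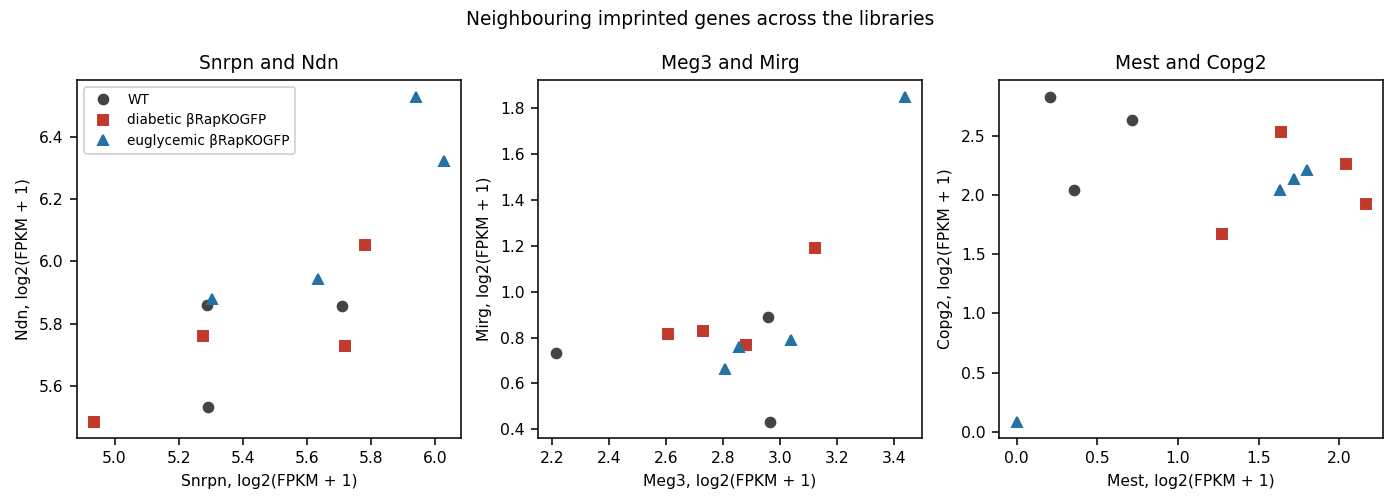
Levels of 3 pairs of neighbouring imprinted genes on the log2(FPKM + 1) scale, each point 1 of the 11 libraries (circles WT, squares diabetic, triangles euglycemic βRapKOGFP). *Snrpn* and *Ndn* rise together (r = 0.817), whereas the *Meg3* and *Mirg* and the *Mest* and *Copg2* panels each hold 1 euglycemic library, replicate 4, far from the others.

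Among 40 other imprinted genes listed by name, 39 were in the table and 20 were tested. The single one called was *Cd81*, a tetraspanin of the *Kcnq1* region, higher in diabetic against WT by 1.18 ± 0.21 (SE, log2; adjusted p = 0.0210, limma) and in euglycemic against WT by 1.49 ± 0.21 (SE, log2; adjusted p = 0.00713, limma). Its FPKM was 45.0, 68.9 and 68.7 among WT libraries, 139.6, 128, 152 and 129 among diabetic libraries and 203, 184, 162 and 137 in euglycemic libraries, so all mutant libraries lay above WT. This is 1 of 20 beside 0.969% and 0.551% of all genes called in those comparisons. The α-, δ- and PP-cell marker sums and the duct markers *Spp1* and *Krt19* were also higher in all mutant libraries. The part of these cells in the *Cd81* result was not tested. Of 7 factors that keep imprints, 5 were tested and 0 were called in any comparison by limma. At an unadjusted p of at most 0.05 there were 0 against WT in either group, beside 11.9% and 13.9% of all genes, and 1 between the mutant groups, beside 20.6%, which for 5 genes says nothing of these factors.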

How the data were processed

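RNA-seq of GFP-sorted β-cells was analysed in 3 WT, 4 diabetic and 4 euglycemic βRapKOGFP libraries, grouped by the GEO labels. The authors deposited 1 FPKM value per gene and library after mapping to mm10 (GRCm38). The paper's methods name Tophat and Cufflinks, whereas the submitters' processing notes name HISAT2 2.0.4 and StringTie 1.3.0, and which made the table is not resolved here. Whether counting used strand is not given in the sources used here. Of 34745 entries, 478 had no symbol, 17 sharing a symbol with a higher entry were left out, and 34728 were kept. Depth was inferred from 4499 single-exon genes of at least 500 bases, where 92.3 to 97.0% of low values were whole steps (tolerance 0.02). Fits used limma 3.58.1 in R 4.3.3 (lmFit, eBayes with trend) on log2(FPKM + 1), all 11 libraries together, over the 11251 genes that reached an FPKM of 1 in 3 or more libraries. FPKM carries no counts, so no count test was used. A fold change is on the log2(FPKM + 1) scale and understates that of low genes. Exact tests, correlations (100000 permutations) and figures used Python 3.11.15, numpy 2.4.6, pandas 2.3.3, scipy 1.17.1 and matplotlib 3.10.9. Annotation was GENCODE vM21.

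Alternatives changed the filter, the pseudocount or the scaling (TPM, median of ratios), dropped the trend or the fold criterion, fitted each comparison's groups alone, weighted the libraries, took p unadjusted, added the replicate number as a block or left out each library, and leaving out diabetic replicate 1 with euglycemic replicate 4 was chosen after seeing the data. Members that were called or had an unadjusted p of at most 0.05 are given with fold changes, and the others by level. The members and lists were chosen with earlier results of these data known.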

Additional observations from a re-analysis of the deposited data

Results flagged for a closer look

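In groups of 4 libraries, a value was set aside for a closer look when its gap to the nearest of the others exceeded Dixon's critical share of the group's range. Among 70 groups of values 11 did so, and for normal values chance gives about 1 in 20, or 3.5 of them. FPKM values need not be normal, and a group at 0 in all but 1 library is always flagged, as for *Phlda2* and *Magel2* below. So the 11 are not read as an excess. In euglycemic replicate 4, *Mest* was at 0 FPKM against 2.11 to 2.47 in the other 3, *Copg2* at 0.0613 FPKM against 3.12 to 3.62, *Zdbf2* at 0.0966 FPKM against 0.726 to 0.815, and *Mirg* at 2.61 FPKM against 0.586 to 0.727. In euglycemic replicate 1, *Snurf* was at 47.8 FPKM against 0.487 to 3.43 and *Mkrn3* at 0.212 FPKM against 0 to 0.0264. In euglycemic replicate 3, *Phlda2* was at 0.352 FPKM and at 0 in the other 3. In diabetic replicate 1, *Inpp5f* was at 12.2 FPKM against 8.93 to 9.40, *Zim1* at 0.769 FPKM against 0.285 to 0.359 and *Magel2* at 0.0996 FPKM against 0. In diabetic replicate 2, *Mirg* was at 1.28 FPKM against 0.700 to 0.779.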

How the results depend on the processing

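The number of members called between diabetic and WT, 2 in the report, was 0 without the filter, with a filter of 0.1 FPKM and with the replicate block, 5 at unadjusted p, and 1 without diabetic replicate 1 and euglycemic replicate 4, while leaving out 1 library gave 0 to 3. For both groups against WT, 1 became 0 without the filter, with the 0.1 filter and with the replicate block, 3 with library weights and at unadjusted p, 2 without that pair of libraries, and 0 to 2 leaving out 1 library. For euglycemic against WT, 0 became 5 with library weights, 3 at unadjusted p, 1 without that pair, and 0 to 2 leaving out 1 library. For diabetic against euglycemic, 0 became 4 with library weights, 5 at unadjusted p, and 0 to 3 leaving out 1 library. The calls over all genes moved as well. With library weights they went from 62 to 2287 for euglycemic against WT, from 1 to 1212 for diabetic against euglycemic and from 118 to 1116 for both groups against WT. At unadjusted p the calls were 929 for diabetic against WT, 1116 for euglycemic against WT, 1355 for diabetic against euglycemic and 779 for both groups. Without WT replicate 1 they were 378 for diabetic against euglycemic, and without the filter 22 for diabetic against WT and 23 for both groups. A looser filter tests more genes, and leaving out a library tests fewer samples. The cause of the other shifts was not tested. Of 20 fold changes given, 0 changed sign in 414 refits, and 354 refits kept the side of the threshold, 38 lost a call and 22 gained one. Rescaling to TPM moved the median log2 difference of all genes between diabetic and euglycemic from 0.01 to 0.12. With *Inpp5f* counted as paternally expressed, 2 paternally expressed members were called between diabetic and WT instead of 1.

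Replicate numbers did not pair the libraries. Deviations from group means had a mean correlation of -0.13 over 10 pairs with the same number and 0.04 over 30 with different numbers. For the members below the minimum, 0 passed with either pseudocount, which says nothing of stability since so few libraries can hardly pass the adjustment. The short single-exon *Mcts2* rested on 20.9 to 94.5 fragments, and FPKM gives no counting interval.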
